A study of Mus musculus with 6 samples.

Results

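The 48 genes described here encode the protein folding machinery of the endoplasmic reticulum (ER): its HSP70, HSP90 and DnaJ chaperones, the cofactors of the HSP70 chaperone BiP, the lectin chaperones, the protein disulfide isomerases (PDI), the membrane-bound thioredoxin proteins (TMX), the disulfide oxidases, the CRELD and CNPY proteins, the proline isomerases (FKBP and cyclophilin), and a last class of Mesd with 2 selenoprotein genes. They were taken by name, in 10 classes, and not by a threshold on their values. All 48 matched 1 of the 43271 genes of the count table (2 of them, Ero1a and Ero1b, under the older symbols Ero1l and Ero1lb), and all 48 passed the filter on low counts, which left 14101 genes. RNA was sequenced from primary microvascular endothelial cells of the brain of wild type C57BL/6 mice, the cells whose tight junctions form the blood-brain barrier. Confluent cultures were given dolutegravir (DTG, an inhibitor of the HIV integrase) at 5000 ng/ml for 24 h (3 libraries, replicates 1 to 3) or its vehicle dimethyl sulfoxide (DMSO) for 24 h (3 libraries, replicates 1 to 3). All cells were grown at passages 2 to 6 in medium with 5% serum and endothelial growth factors. The study's title places its question in ER stress and the barrier.

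The labels limit what the groups stand for. Library names carry an undefined tag, P5 for DTG replicate 1 and DMSO replicates 2 and 3, and P4 for DTG replicates 2 and 3 and DMSO replicate 1. They also carry a number, 2, 2 and 3 for DTG replicates 1, 2 and 3 and 1, 1 and 3 for DMSO replicates 1, 2 and 3, whose meaning is not stated. Nothing in the labels says that the libraries of a group are separate cultures, so a p-value here reflects only their spread, which may be technical. Libraries held 51344169 to 56316335 counts in DTG and 41162353 to 55998253 in DMSO, and their log2 levels correlated across genes at 0.991 to 0.995 within a group. The endothelial label held, with all 8 endothelial markers detected, among them Cdh5 (VE-cadherin) at 1996 to 2198 CPM in DTG and 1781 to 2006 CPM in DMSO. CPM are counts per 1000000 counts of a library, after scaling by the trimmed mean of M values (TMM). Pericyte, smooth muscle and microglial markers (6, 4 and 5 genes) all stayed under 1 CPM, as did 3 of 5 fibroblast, 4 of 5 astrocyte and 3 of 4 neuronal markers. Pericyte Pdgfrb, at 0.502 to 0.843 CPM in DTG and 0.169 to 0.236 CPM in DMSO, was higher in DTG (3.62-fold, edgeR adjusted p = 0.000594). The fibroblast markers above 1 CPM were Pdgfra, at 6.08 to 7.73 CPM in DTG and 5.75 to 6.78 CPM in DMSO (adjusted p = 0.362), and Col1a1, at 0.576 to 1.06 CPM in DTG and 0.345 to 0.506 CPM in DMSO (1.91-fold higher in DTG, adjusted p = 0.0179). The astrocyte marker above 1 CPM was Gja1, at 203 to 249 CPM in DTG and 56.4 to 65.2 CPM in DMSO, and the neuronal one Tubb3, at 2.12 to 6.00 CPM in DTG and 0.0921 to 0.118 CPM in DMSO. The sum of the 8 endothelial markers was lower in DTG, at 6117 to 6449 CPM, than in DMSO, at 10397 to 11367 CPM, and 7 of the 8 fell.

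Secreted and membrane proteins fold in the ER, where BiP (Hspa5) holds unfolded chains through cycles of ATP use that DnaJ proteins start and exchange factors end. Calnexin and calreticulin bind chains that carry a trimmed sugar, PDI enzymes make and rearrange disulfide bonds with oxidising power from ERO1, and FKBP and cyclophilin enzymes turn proline bonds. When unfolded protein accumulates, the sensors IRE1, PERK and ATF6 start the unfolded protein response, in which the factors ATF6 and XBP1 raise the transcription of many of these genes. In brain endothelium the same compartment makes the junction proteins, receptors and basement membrane of the barrier.

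Most of this machinery was higher after DTG, but not evenly. By edgeR's quasi-likelihood test with Benjamini-Hochberg adjustment over all genes tested (threshold 0.05), 35 of the 48 genes rose, 3 fell (Cnpy4, Fkbp9 and Fkbp10) and 10 did not pass (Sil1, Sdf2, Txndc12, Tmx1, Tmx2, Tmx3, Tmx4, Qsox1, Cnpy2 and Cnpy3). Of all genes tested 27.4% were called higher and 29.3% lower (56.7% in all). Of these calls 48.3% were higher, a share that scaling by library size alone, which moved the median of all genes by -0.17 log2, put at 30.7% and upper-quartile scaling at 38.2%. With library-size scaling 30 folding genes were higher and 6 lower. The size of the change stood farther from that background than the share of calls did: 24 of 48 rose by a log2 change of at least 1, which 6.28% of all genes did, and 16 by at least 2, which 2.12% of all genes did. The median log2 change was 0.89 over the 48 genes (0.87 in the P4 libraries alone and 0.93 in the P5 libraries alone), beside -0.01 over all genes tested. The libraries of the groups did not overlap for 35 folding genes on the higher and 3 on the lower side, against 31.1% and 33.1% of all genes. In bulk RNA, fewer cells of a type and less RNA per cell cannot be told apart, and the part that the lower endothelial markers, or the higher Pdgfrb, Col1a1, Gja1 and Tubb3, play in any of these values was not tested.

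The classes differed in how far they rose. The HSP70, HSP90 and DnaJ class (9 of 10 higher) had a median log2 change of 2.63, and the BiP cofactors (2 of 3 higher) one of 3.51. The lectin chaperones (2 of 2 higher) had 2.12, the PDI class (9 of 10 higher) 1.67, the oxidases with Prdx4 (3 of 4 higher) 1.58 and the CRELD genes (2 of 2 higher) 3.11. The FKBP and cyclophilin class (5 higher and 2 lower of 7) had a median of 0.41, as had Mesd with the selenoproteins (3 of 3 higher). Both medians were 0.24 with library-size scaling. The lower genes of the FKBP class were 1 without DTG replicate 2, DTG replicate 3 or DMSO replicate 1, and 0 within the P5 libraries. The TMX class (0 of 4 called) and the CNPY class (0 higher and 1 lower of 3) had medians of -0.09 and -0.11. The CNPY median was -0.29 within P4 and 0.07 within P5, and -0.28 with library-size scaling. That scaling gave the TMX class a median of -0.25, and with it or with upper-quartile scaling 2 TMX genes were called lower. A class with a high median could hold a gene that did not move, as the HSP70 class did with Sil1, the BiP cofactors with Sdf2 and the PDI class with Txndc12.

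**Figure D1:**
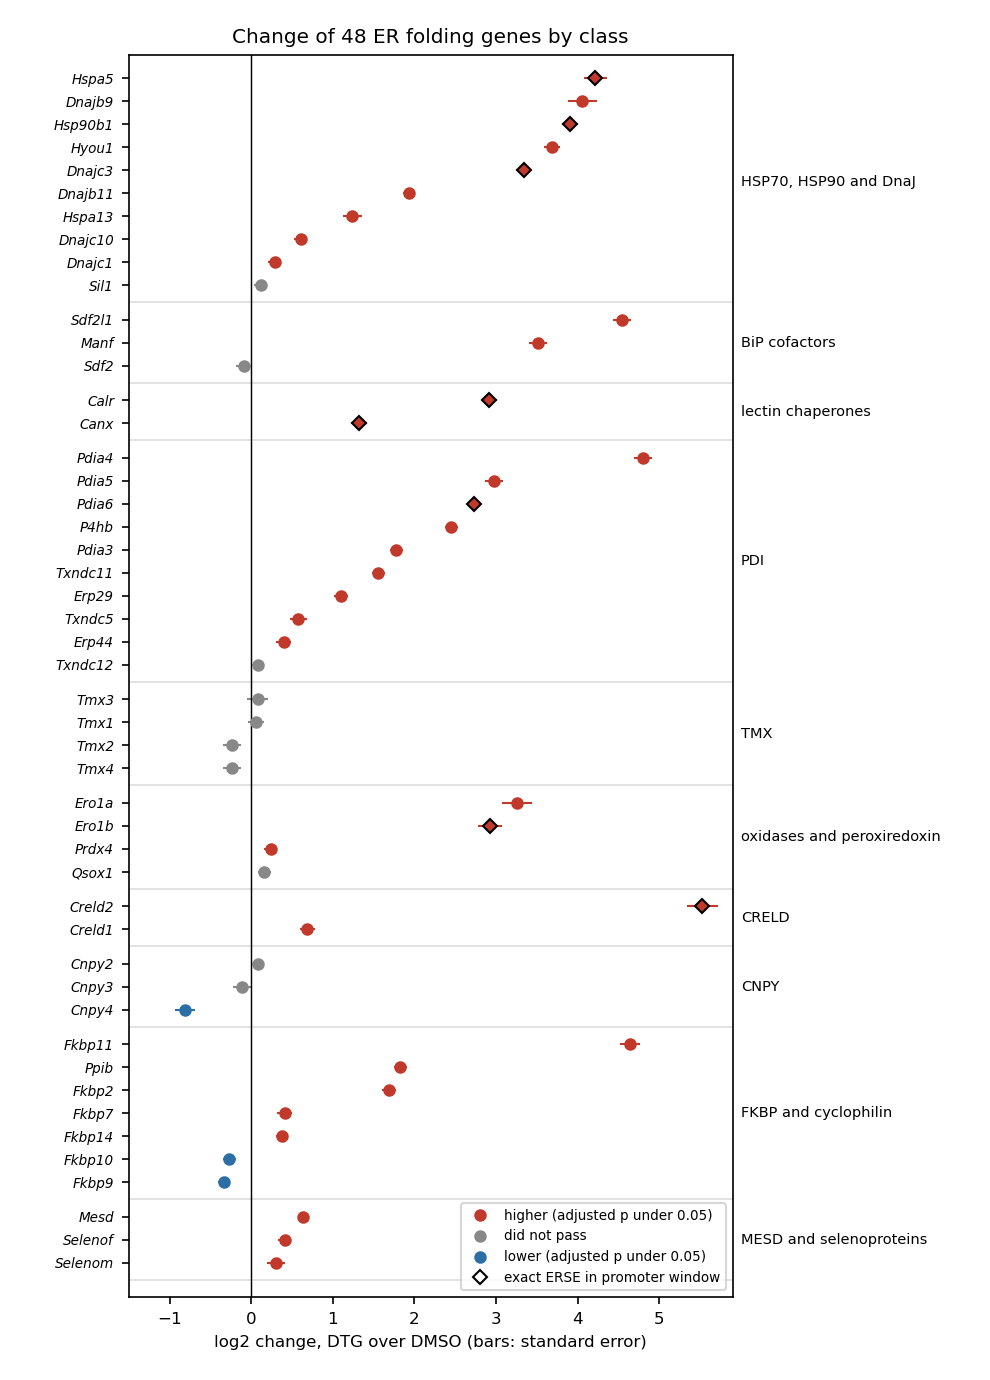
Each point is the log2 change of 1 of the 48 genes in DTG over DMSO (horizontal axis, bars give the standard error, 3 libraries a group), with genes ordered by change within their class. Changes run up to 5.53 for Creld2, the 4 TMX genes lie between -0.24 and 0.08, and the diamonds mark the 8 genes whose promoter window holds an exact ERSE.

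The promoters are shown because many of these genes are known targets of ATF6 and XBP1, whose element can be searched in them. The ER stress response element (ERSE) is a CCAAT box and a CCACG site with 9 bases between them (searched on both strands), through which ATF6 and XBP1 act with the factor NF-Y. Promoter windows of 300 bases, 250 before to 50 after the gene start, were taken from RefSeq (GRCm38.p6). They were at hand for 41 of the 48 genes and not for Hyou1, Sil1, Hspa13, Manf, Erp29, Tmx3 and Fkbp10. A gene with more than 1 window was counted once. An exact ERSE stood in a window of 8 of the 41 genes (19.5%), beside 37 of all 27025 genes with a window (0.137%). Since the set holds known targets of the factors that act through this element, the contrast is a description and not a test. The 8 genes were Hspa5, Hsp90b1 (which holds 2 copies), Dnajc3, Calr, Canx, Pdia6, Ero1b and Creld2. Below are the 150 bases before the start of Hspa5 and of Creld2, followed by the same stretch of Creld1, the CRELD paralog without the element, and of Pdia4, the most changed PDI gene, also without it. Capitals mark the ERSE, and each is written 5′ to 3′ on the strand of its gene.
Hspa5: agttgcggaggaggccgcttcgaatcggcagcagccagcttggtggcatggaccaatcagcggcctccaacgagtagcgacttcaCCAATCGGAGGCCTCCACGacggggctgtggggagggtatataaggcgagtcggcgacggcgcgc
Creld2: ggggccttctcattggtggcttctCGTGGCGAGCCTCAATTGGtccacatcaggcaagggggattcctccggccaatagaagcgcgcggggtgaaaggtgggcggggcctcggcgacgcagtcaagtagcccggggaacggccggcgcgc
Creld1: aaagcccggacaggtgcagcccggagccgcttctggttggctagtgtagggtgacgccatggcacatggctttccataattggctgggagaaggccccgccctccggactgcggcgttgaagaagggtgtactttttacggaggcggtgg
Pdia4: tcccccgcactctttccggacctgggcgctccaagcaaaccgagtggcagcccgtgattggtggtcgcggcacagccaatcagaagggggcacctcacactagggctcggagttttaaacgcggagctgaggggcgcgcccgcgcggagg

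The stretches lie at chr2:34771940-34772089 (Hspa5, forward strand), chr15:88819496-88819645 (Creld2, forward strand), chr6:113483206-113483355 (Creld1, forward strand), chr6:47813513-47813662 (Pdia4, reverse strand) of GRCm38.p6. The element ended 47 bases before the start in Hspa5 and 108 bases before it in Creld2, where it stands on the opposite strand. The other 7 copies are given with 20 bases on either side, again with the ERSE in capitals, to show how the spacer between the conserved ends differs.
Calr: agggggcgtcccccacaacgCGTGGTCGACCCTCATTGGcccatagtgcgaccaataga
Hsp90b1, upstream copy: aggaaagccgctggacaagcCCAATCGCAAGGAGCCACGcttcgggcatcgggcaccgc
Hsp90b1, second copy: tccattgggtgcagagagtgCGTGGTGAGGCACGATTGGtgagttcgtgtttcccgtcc
Canx: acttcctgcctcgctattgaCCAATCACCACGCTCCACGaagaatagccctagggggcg
Pdia6: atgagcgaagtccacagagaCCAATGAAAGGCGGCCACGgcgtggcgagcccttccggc
Ero1b: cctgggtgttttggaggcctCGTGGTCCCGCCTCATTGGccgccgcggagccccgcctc
Dnajc3: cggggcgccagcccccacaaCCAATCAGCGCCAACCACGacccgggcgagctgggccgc

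They lie at chr8:84847055-84847113 (Calr, reverse), chr10:86705618-86705676 (Hsp90b1 upstream copy, reverse), chr10:86705513-86705571 (Hsp90b1 second copy, reverse), chr11:50325780-50325838 (Canx, reverse), chr12:17266471-17266529 (Pdia6, forward), chr13:12565662-12565720 (Ero1b, forward), chr14:118937807-118937865 (Dnajc3, forward). Calr, Ero1b and the second copy in Hsp90b1 hold it on the opposite strand.

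Changes were larger in the genes with an exact ERSE, as a description of this set. The 8 genes with an exact ERSE had a median log2 change of 3.13, from 1.32 in Canx to 5.53 in Creld2, and the 33 genes without one had a median of 0.41. Of the 14 genes with a log2 change of at least 2 and a window, 7 held it, and 0 of the 21 with a change under 1 did. The other 7 of those 14 (Pdia4, Fkbp11, Sdf2l1, Dnajb9, Ero1a, Pdia5 and P4hb) had no exact copy, which says only that these letters are not in their windows. The shorter site CCACG, which the ERSE contains, was in 31 of the 41 genes (75.6%), beside 35.5% of all genes with a window. Its 31 genes had a median log2 change of 1.83, against 0.12 in the 10 without it. The related element ERSE-II (ATTGG and CCACG with 1 base between them) was found in Dnajb11 alone among the 41 (2.44%), beside 0.0444% of all genes. The core of XBP1 sites, GACGTGG, was in 5 genes (Pdia5, Pdia6, Txndc5, Txndc11 and Fkbp14, 12.2%), beside 2.73% of all genes. The ATF4 composite site TGATGNAAT was in Cnpy2 alone (2.44%), beside 1.08% of all genes. A match is a description of the sequence, and windows on both strands were read in full, so that a CCACG inside an ERSE was counted for both.

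Among the HSP70, HSP90 and DnaJ genes the changes ran from 4.22 log2 in Hspa5 to 0.12 in Sil1. Values per library are given in the order of replicates 1, 2 and 3. Hspa5 had 10660.0, 14759 and 14712 CPM in DTG libraries, against 675, 732 and 754 CPM in DMSO libraries. Hsp90b1, which encodes GRP94, the ER HSP90 that folds integrins and Toll-like receptors, had 15345, 16916 and 17489 CPM in DTG libraries, against 1042, 1069 and 1188 CPM in DMSO libraries. Every DTG library stood far above every DMSO library for both, and DTG replicate 1 was the lowest of the DTG libraries. The log2 changes were 4.22 ± 0.14 (SE, adjusted p = 2.92e-08) for Hspa5 and 3.91 ± 0.10 (SE, adjusted p = 5.39e-09) for Hsp90b1, or 18.6-fold and 15.1-fold. Per kilobase of exon Hsp90b1 led the 48 genes in both groups, while Hspa5 was the second in DTG and the fifth in DMSO.

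The 2 nucleotide exchange factors of BiP parted. Hyou1 (GRP170), which also holds unfolded chains itself, had 1789, 2228 and 2038 CPM in DTG libraries, against 164, 152 and 154 CPM in DMSO libraries. Sil1, the other exchange factor, had 20.2, 21.8 and 20.9 CPM in DTG libraries, against 19.04, 20.04 and 18.7 CPM in DMSO libraries. The groups stood far apart for Hyou1 and close together for Sil1, whose DTG libraries were all a little above the DMSO libraries. Hyou1 changed by 3.69 ± 0.10 (SE, adjusted p = 6.63e-09) log2, and Sil1, at 0.12 ± 0.08 (SE, adjusted p = 0.231), did not pass.

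The 5 DnaJ genes spread over the whole range. Dnajb9 (ERdj4, which helps BiP restrain IRE1 and feeds misfolded proteins to disposal) had 313, 496 and 473 CPM in DTG libraries, against 23.1, 25.4 and 28.2 CPM in DMSO libraries. Dnajc3 (p58IPK, a DnaJ protein also described as an inhibitor of PERK) had 1091, 1206 and 1149 CPM in DTG libraries, against 106, 110.1 and 124 CPM in DMSO libraries. In both, each DTG library was many times above each DMSO library, and DTG replicate 1 was the lowest of its group, most so for Dnajb9. Their log2 changes were 4.06 ± 0.18 (SE, adjusted p = 3.72e-07) and 3.34 ± 0.09 (SE, adjusted p = 6.63e-09). Dnajb11 (ERdj3, which passes new chains to BiP) rose by 1.93 log2 and Dnajc10 (ERdj5, a DnaJ protein that reduces disulfides before disposal) by 0.61. Dnajc1 (ERdj1, a membrane DnaJ protein near the ribosome) had 78.3, 89.1 and 87.3 CPM in DTG libraries, against 68.3, 67.7 and 72.4 CPM in DMSO libraries. Its groups did not overlap but lay close, with a log2 change of 0.29 ± 0.08 (SE, adjusted p = 0.0093), and the call was lost with library-size scaling (adjusted p = 0.198). Dnajc1 shares 749 exon bases with Mllt10 on the opposite strand. Hspa13, an HSP70 without a substrate domain of the usual kind, had a log2 change of 1.24.

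The cofactors of BiP held the same contrast between paralogs. Sdf2l1, which works with ERdj3 and BiP to keep chains soluble, had 412, 519 and 481 CPM in DTG libraries, against 19.97, 20.97 and 19.5 CPM in DMSO libraries. Sdf2, its paralog, had 59.2, 52.9 and 54.4 CPM in DTG libraries, against 61.1, 64.8 and 51.03 CPM in DMSO libraries. Per kilobase of exon Sdf2l1 was above Sdf2 in every DTG library and below it in every DMSO library, while the groups of Sdf2 overlapped. Manf, a secreted factor that steadies the complex of BiP with its client, had 835, 1024 and 1004 CPM in DTG libraries, against 82.9, 92.01 and 76.5 CPM in DMSO libraries. The log2 changes were 4.55 ± 0.11 (SE, adjusted p = 2.8e-09) for Sdf2l1 and 3.51 ± 0.11 (SE, adjusted p = 1.97e-08) for Manf. Sdf2, at -0.09 ± 0.10 (SE, adjusted p = 0.465), did not pass, although it was called lower with library-size scaling (-0.26, adjusted p = 0.0492), and its exons share 242 bases with the more abundant Supt6 on the opposite strand.

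**Figure D2:**
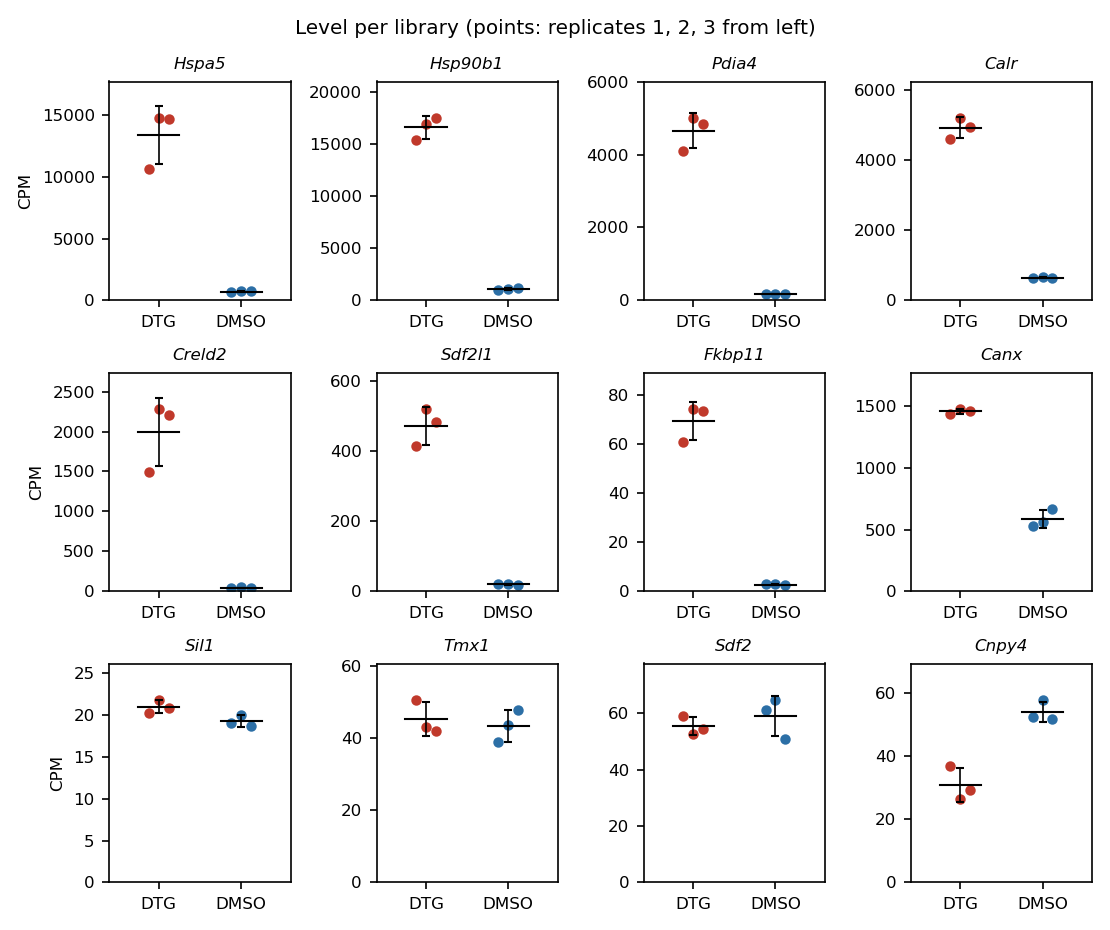
Points are the CPM of single libraries (replicates 1, 2 and 3 from left) of 12 genes, with DTG in red at left and DMSO in blue at right, and lines and bars give the mean and SD of each group (n = 3). The DTG libraries of Hspa5 lie between 10660.0 and 14759 CPM and those of DMSO between 675 and 754 CPM, the groups of Tmx1 and Sdf2 overlap, and those of Cnpy4 are separated with DTG below.

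Both lectin chaperones rose, and the soluble one rose more. Calr (calreticulin) had 4615, 5212 and 4952 CPM in DTG libraries, against 641, 664 and 653 CPM in DMSO libraries. Canx (calnexin, its membrane-bound counterpart) had 1432, 1473 and 1455 CPM in DTG libraries, against 528, 561 and 664 CPM in DMSO libraries. DTG libraries were above DMSO libraries for both, with a wider gap for Calr. Per kilobase Calr stood at 1602 to 1810 CPM in DTG and 223 to 231 CPM in DMSO, and Canx at 305 to 314 CPM in DTG and 113 to 142 CPM in DMSO. Calr changed by 2.92 ± 0.09 (SE, adjusted p = 1.07e-08) log2 and Canx by 1.32 ± 0.10 (SE, adjusted p = 2.86e-06), and both windows hold an ERSE.

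In the PDI class 9 of 10 genes rose, and Pdia4 and Pdia3 changed places. Pdia4 (ERp72, an isomerase with one thioredoxin domain more than the classic enzyme) had 4101, 5002 and 4850.5 CPM in DTG libraries, against 171, 166 and 163 CPM in DMSO libraries. Pdia3 (ERp57, which works on the glycoproteins that calnexin and calreticulin hold) had 2856, 2569 and 2661 CPM in DTG libraries, against 739, 807 and 813 CPM in DMSO libraries. Per kilobase Pdia4 was above Pdia3 in every DTG library and below it in every DMSO library. For Pdia3, DTG replicate 1 was the highest of its group, whereas for Pdia4 it was the lowest. Pdia4 changed by 4.80 ± 0.11 (SE, adjusted p = 2.38e-09) log2 and Pdia3 by 1.78 ± 0.08 (SE, adjusted p = 2.26e-07). On the same scale Pdia4 was the third of the 48 genes in DTG and the eighth in DMSO, and Pdia3 the seventh in DTG and the second in DMSO.

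Pdia5, a less studied isomerase, had 65.8, 70.5 and 71.1 CPM in DTG libraries, against 10.3, 8.38 and 7.55 CPM in DMSO libraries, a log2 change of 2.98 ± 0.11 (SE, adjusted p = 5.45e-08). The classic isomerase gene P4hb, whose product is also a subunit of the collagen prolyl hydroxylase, rose by 2.45 log2 to 3554 ± 179.5 CPM in DTG, against 649.9 ± 12.97 in DMSO (SD, n = 3 each). Pdia6, an isomerase that acts on IRE1 and PERK, rose by 2.73 log2. Smaller rises were those of Txndc11 (a disulfide enzyme linked to glycoprotein disposal, 1.56), Erp29 (which lacks the usual active cysteines, 1.10), Txndc5 (an isomerase rich in endothelium, 0.58) and Erp44 (0.40). Erp29 shares 2210 exon bases with Naa25 on the opposite strand. Erp44, which retrieves ERO1 and other escaped enzymes from the Golgi, lost its call with library-size scaling (adjusted p = 0.0621). Txndc12 (ERp18) had 55.5, 57.96 and 55.8 CPM in DTG libraries, against 50.1, 56.8 and 53.6 CPM in DMSO libraries. Its groups overlapped, and at 0.08 ± 0.08 (SE, adjusted p = 0.41) log2 it did not pass.

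The membrane-bound thioredoxin proteins, which work on disulfides at the ER membrane, gave no call in either direction. Tmx1, which acts on membrane-bound clients, had 50.5, 43.03 and 41.9 CPM in DTG libraries, against 38.9, 43.6 and 47.7 CPM in DMSO libraries. Tmx2 had 84.3, 64.5 and 65.7 CPM in DTG libraries, against 76.00, 90.8 and 85.04 CPM in DMSO libraries. Tmx3 had 50.1, 49.4 and 49.9 CPM in DTG libraries, against 40.8, 41.8 and 58.9 CPM in DMSO libraries. The groups overlapped in each of them, and for Tmx1 and Tmx2 DTG replicate 1 was the highest DTG library. Tmx4, a reductase partner of calnexin, had 39.7, 37.1 and 33.9 CPM in DTG libraries, against 39.5, 40.8 and 50.7 CPM in DMSO libraries. Its groups overlapped too, since the lowest DMSO library was below the highest DTG library. The log2 changes were 0.06 ± 0.10 (SE, adjusted p = 0.645) for Tmx1, -0.23 ± 0.11 (SE, adjusted p = 0.106) for Tmx2, 0.08 ± 0.13 (SE, adjusted p = 0.619) for Tmx3 and -0.24 ± 0.11 (SE, adjusted p = 0.0803) for Tmx4. None of the 4 passed, but with library-size scaling Tmx2 and Tmx4 were called lower, at -0.40 (adjusted p = 0.0137) and -0.41 (adjusted p = 0.00795) log2. Tmx2 shares 252 exon bases with Gm28635 on the same strand. Tmx2 was also called lower without DTG replicate 1 and Tmx3 higher without DMSO replicate 3 (adjusted p = 0.0102 and 0.00697).

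Both oxidases that recharge the isomerases rose, and of the enzymes beside them Prdx4 rose little and Qsox1 did not pass. Ero1a, the more widely expressed of the ERO1 oxidases, had 579, 874 and 845 CPM in DTG libraries, against 70.3, 75.8 and 94.6 CPM in DMSO libraries. Ero1b, best known from secretory pancreas, had 58.4, 91.5 and 83.8 CPM in DTG libraries, against 9.98, 10.5 and 10.3 CPM in DMSO libraries. DTG libraries stood far above DMSO libraries for both, with DTG replicate 1 below the other DTG libraries and above all DMSO libraries. Ero1a changed by 3.26 ± 0.18 (SE, adjusted p = 1.07e-06) log2 and Ero1b by 2.93 ± 0.15 (SE, adjusted p = 4.74e-07). Prdx4, the peroxiredoxin that clears the hydrogen peroxide made by ERO1, had 51.8, 48.1 and 47.5 CPM in DTG libraries, against 39.01, 44.6 and 41.3 CPM in DMSO libraries. Its groups did not overlap, but at 0.24 ± 0.08 (SE, adjusted p = 0.0273) log2 its call was lost with library-size scaling (adjusted p = 0.492) and without DMSO replicate 1 (adjusted p = 0.104). Qsox1, a sulfhydryl oxidase of the Golgi and the medium, had 79.96, 87.2 and 85.98 CPM in DTG libraries, against 81.5, 75.4 and 70.2 CPM in DMSO libraries. Its groups overlapped, and at 0.16 ± 0.08 (SE, adjusted p = 0.122) log2 it did not pass, although it did without DTG replicate 1 (adjusted p = 0.0304).

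Creld2, a secreted ER protein with EGF domains that is known as an ER stress gene, had the largest log2 change of the 48. It had 1499.7, 2282 and 2203 CPM in DTG libraries, against 41.5, 49.1 and 39.2 CPM in DMSO libraries. Creld1, its membrane-bound paralog known from heart valve development, had 124, 118 and 117 CPM in DTG libraries, against 79.7, 77.1 and 65.9 CPM in DMSO libraries. The DTG libraries of Creld2 stood far above its DMSO libraries, with DTG replicate 1 the lowest of them, and those of Creld1 stood a little above. The log2 changes were 5.53 ± 0.19 (SE, adjusted p = 4.33e-08) for Creld2 and 0.69 ± 0.09 (SE, adjusted p = 9.01e-05) for Creld1. Of their promoters, shown above, only that of Creld2 holds an exact ERSE, and its part in these changes was not tested. Per kilobase Creld2 was the fifth of the 48 genes in DTG and number 17 in DMSO.

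No CNPY gene rose. Cnpy2, an ER protein with a saposin-like fold, had 100.3, 101 and 103 CPM in DTG libraries, against 96.4, 105 and 86.6 CPM in DMSO libraries. Cnpy3, which helps GRP94 fold Toll-like receptors, had 79.2, 65.4 and 65.5 CPM in DTG libraries, against 80.2, 81.05 and 65.3 CPM in DMSO libraries. The groups of both overlapped, at log2 changes of 0.08 ± 0.08 (SE, adjusted p = 0.421) for Cnpy2 and -0.11 ± 0.11 (SE, adjusted p = 0.411) for Cnpy3. Cnpy4, which affects the surface level of a Toll-like receptor, had 36.8, 26.3 and 29.2 CPM in DTG libraries, against 52.4, 57.7 and 51.6 CPM in DMSO libraries. All DTG libraries were below all DMSO libraries, DTG replicate 1 being the highest of the DTG libraries, and Cnpy4 fell by 0.81 log2 (adjusted p = 0.000247), the largest fall of the 48 genes.

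The proline isomerases divided into a strongly raised gene, a middle pair and a low group. Fkbp11, known from secretory cells such as plasma cells, had 60.6, 74.2 and 73.2 CPM in DTG libraries, against 2.95, 2.83 and 2.53 CPM in DMSO libraries. It was the lowest of the 48 genes per kilobase in DMSO, and its DTG libraries were all far above, at 4.64 ± 0.12 (SE, adjusted p = 4.39e-09) log2. Of 5 plasma cell markers 4 stayed under 1 CPM in every library, and the other, Sdc1, did not pass. Ppib (cyclophilin B, part of the complex that modifies collagen prolines) had 554, 527 and 531 CPM in DTG libraries, against 148, 166 and 140.3 CPM in DMSO libraries, at 1.83 ± 0.08 (SE, adjusted p = 1.83e-07) log2. Fkbp2 rose by 1.69 log2. Within the P4 and the P5 libraries Ppib changed by 1.84 and 1.86 log2 and Fkbp2 by 1.69 and 1.63.

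Fkbp7 (a BiP-binding FKBP) and Fkbp14 (an FKBP of collagen-making cells) rose by 0.41 and 0.38 log2, and Fkbp7 lost its call with library-size scaling (adjusted p = 0.0511). Fkbp9 had 117, 112 and 107 CPM in DTG libraries, against 139, 145 and 138 CPM in DMSO libraries. Fkbp10 (FKBP65, a collagen chaperone) had 59.8, 56.6 and 55.2 CPM in DTG libraries, against 74.1, 68.7 and 63.8 CPM in DMSO libraries. DTG libraries were below DMSO libraries in both, by narrow margins. Fkbp9 changed by -0.33 ± 0.07 (SE, adjusted p = 0.00301) log2 and Fkbp10 by -0.27 ± 0.08 (SE, adjusted p = 0.0161). Fkbp10 did not keep its call without DTG replicate 2, without DTG replicate 3 or without DMSO replicate 1, with adjusted p of 0.0833, 0.112 and 0.068, and it shares 193 exon bases with Nt5c3b on the opposite strand.

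Mesd, the chaperone of the Wnt coreceptors LRP5 and LRP6, had 122, 124 and 122 CPM in DTG libraries, against 77.4, 84.1 and 75.5 CPM in DMSO libraries. Selenof, a selenoprotein bound to the glycoprotein folding sensor UGGT, had 279, 248 and 257 CPM in DTG libraries, against 182, 208 and 201 CPM in DMSO libraries. Selenom, a thioredoxin-like selenoprotein, had 46.7, 39.2 and 41.5 CPM in DTG libraries, against 32.4, 40.00 and 30.2 CPM in DMSO libraries. The groups of Mesd and Selenof were separated and those of Selenom overlapped. Mesd changed by 0.64 ± 0.07 (SE, adjusted p = 4.86e-05) log2, Selenof by 0.41 ± 0.08 (SE, adjusted p = 0.00174) and Selenom by 0.31 ± 0.11 (SE, adjusted p = 0.0386). The call of Selenom was lost with library-size scaling (adjusted p = 0.324), without DTG replicate 1 (0.0667), without DMSO replicate 1 (0.123) and without DMSO replicate 3 (0.129).

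Ratios of related genes within a library, which do not depend on how libraries are scaled, were compared for 13 pairs. They are ratios of CPM without regard to length, so only their difference between groups is read. In the ratio of Creld2 to Creld1 the DTG libraries had 12.1, 19.3 and 18.9, against 0.520, 0.637 and 0.595 in the DMSO libraries. For Fkbp11 over Fkbp10 the ratio was 1.01, 1.31 and 1.32 in DTG libraries, against 0.0399, 0.0412 and 0.0397 in DMSO libraries. Sdf2l1 over Sdf2 gave 6.96, 9.82 and 8.83 in DTG libraries, against 0.327, 0.324 and 0.381 in DMSO libraries. Creld2, Fkbp11 and Sdf2l1 thus rose against their relatives by 4.81, 4.91 and 4.62 log2, the widest of the 13 differences. Hyou1 over Sil1 differed by 3.56 log2 between groups, Dnajc3 over Dnajc1 by 3.05, Pdia4 over Pdia3 by 3.02 and Calr over Canx by 1.59. The ERO1 pair was the exception in size, with a ratio of Ero1b to Ero1a of 0.101, 0.105 and 0.0992 in DTG libraries, against 0.142, 0.138 and 0.109 in DMSO libraries, a difference of -0.34 log2. The P4 libraries gave -0.48 and the P5 libraries -0.28, and each of the other 12 pairs kept its direction within both tags.

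Relatives outside the ER were set against the folding genes in the same way. Hspa8, the constitutive cytosolic HSP70, had 2801, 2373 and 2448 CPM in DTG libraries, against 2206, 2365 and 2200.2 CPM in DMSO libraries. Its groups lay close together while those of Hspa5 stood far apart, and the ratio of Hspa5 to Hspa8 differed by 4.03 log2. Hsp90b1 over the cytosolic Hsp90ab1 gave 5.57, 6.45 and 6.55 in DTG libraries, against 0.394, 0.394 and 0.461 in DMSO libraries. Against the mitochondrial relatives the ratios differed by 2.59 log2 for Hspa5 over Hspa9 and by 3.71 for Hsp90b1 over Trap1, and Ppib over the cytosolic cyclophilin gene Ppia differed by 1.73. Hspa8 and Ppia have processed pseudogene copies that could share their reads, so their counts are uncertain. In all 13 pairs the groups did not overlap. Of all single genes tested, 31.1% were without overlap on the higher and 33.1% on the lower side. No such share was computed for ratios, and the pairs were chosen with earlier results known, so the count is a description. The two-sided exact permutation test gave p = 0.1 for each, the smallest that 3 against 3 libraries allow, and 0.1 after adjustment over the 13 pairs, so no pair could pass 0.05.

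**Figure D3:**
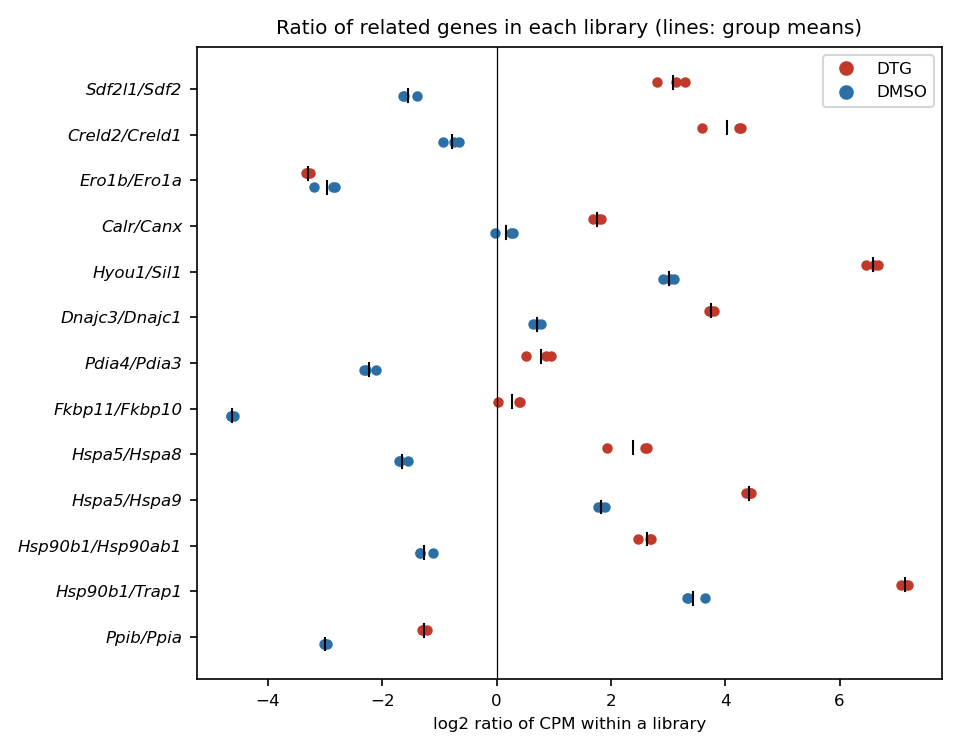
Each row is a pair of related genes and each point the log2 ratio of their CPM in 1 library, DTG in red above and DMSO in blue below, with black lines at the group means (n = 3 each). DTG lies to the right of DMSO in 12 pairs and to the left in the ERO1 pair, at -3.30 in DTG and -2.96 in DMSO. The side depends on which gene of a pair is written first, and the pairs were chosen with earlier results known.

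Together the 48 genes took a far larger part of the sequenced RNA after DTG. They held 5.24%, 6.00% and 6.01% of all counts in DTG libraries, against 0.812%, 0.842% and 0.846% in DMSO libraries, a ratio of means of 6.90. Hspa5 and Hsp90b1 alone held 2.82% ± 0.292 in DTG and 0.193% ± 0.0109 in DMSO (SD, n = 3 each), the PDI genes 1.29% in DTG and 0.246% in DMSO, and the lectin chaperones 0.601% in DTG and 0.131% in DMSO. The TMX genes held 0.0192% in DTG and 0.0231% in DMSO. The 21 genes of the cytosolic chaperone list held 0.802% in DTG and 0.777% in DMSO. Hsp90b1 had the most counts of all genes in every DTG library. Of the 20 genes with the most counts 6, 5 and 6 were folding genes in DTG libraries, against 0 in each DMSO library. Of the 100 with the most counts, 11, 12 and 12 were folding genes in DTG libraries, against 1 in each DMSO library.

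**Figure D4:**
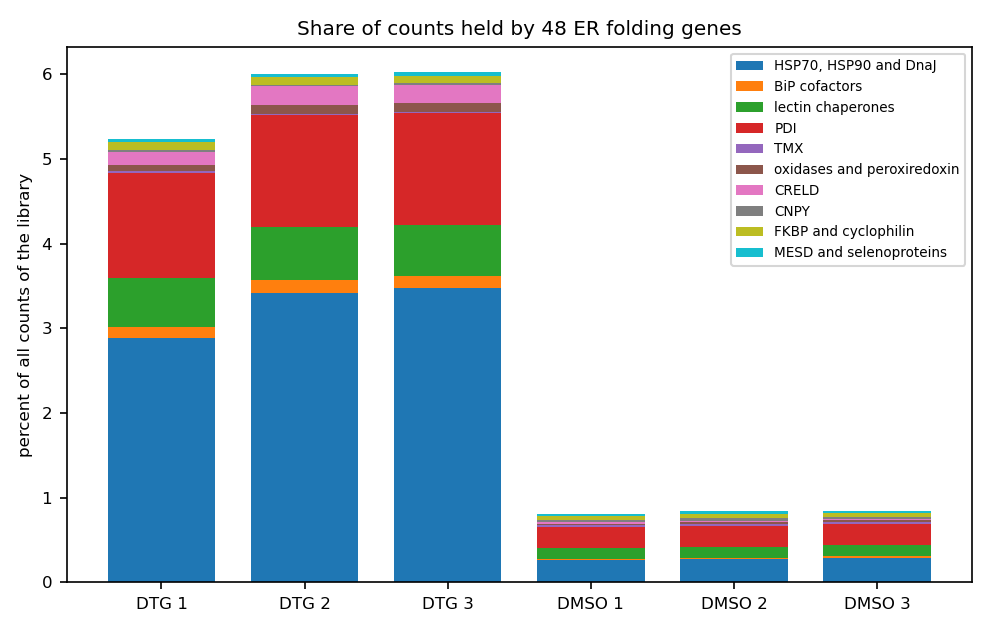
Bars give the percent of all counts of a library held by the 48 genes, stacked by class from the HSP70, HSP90 and DnaJ class at the bottom. The DTG libraries reach 5.24 to 6.01% and the DMSO libraries 0.812 to 0.846%, and the HSP70 and PDI classes make up most of each bar.

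Set against Hspa5, the sums of its DnaJ partners, of its exchange factors and of the isomerases stood lower in DTG, as did Hsp90b1. Summed per kilobase of exon, the 5 DnaJ genes came to 0.196 ± 0.0209 of the level of Hspa5 in DTG and 0.700 ± 0.0143 in DMSO (SD, n = 3 each). The 10 PDI genes came to 1.52 ± 0.209 times Hspa5 in DTG and 4.22 ± 0.238 times in DMSO. The exchange factors Hyou1 and Sil1 together came to 0.0911 ± 0.00889 in DTG and 0.161 ± 0.0142 in DMSO, and Hsp90b1 to 1.32 ± 0.166 in DTG and 1.6 ± 0.0621 in DMSO. Each of these ratios was lower in every DTG library than in every DMSO library (exact permutation p = 0.1 each, the smallest possible here). Hspa5 was number 5 of the 48 by log2 change, so lower sums against it were largely set in advance and the test adds no support. The DnaJ genes differed: Dnajb9 was at 4.86 to 5.58% of Hspa5 per kilobase in DTG and 5.67 to 6.21% in DMSO. Dnajb11 was at 4.4 to 5.93% in DTG and 22.5 to 24.7% in DMSO. Single genes could go the other way. Creld2, Pdia4, Fkbp11 and Sdf2l1 stood higher against Hspa5 in every DTG library than in every DMSO library. Pdia4 was at 58.1 to 67.8% of Hspa5 per kilobase in DTG and at 38.1 to 44.6% in DMSO. The level of a gene under DMSO said little about its change, with a Spearman correlation of 0.15 and a Pearson correlation of 0.06 across the 48 genes, a description only since all points come from the same 6 libraries.

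DTG replicate 1 had the smallest rises of the most changed genes. It is the only DTG library with the P5 tag. In all 16 genes with a log2 change of at least 2 it was the lowest DTG library, at 0.645 (Dnajb9) to 0.929 (Pdia5) of the mean of the other 2 (median 0.829). In the 32 other genes it was the lowest in 12, with a median ratio of 1.05. The same was seen beyond the folding genes: among all 299 genes that passed with a log2 change of at least 2, it was the lowest in 80.3% (median ratio 0.695), and among all genes tested in 41.9%. Dnajb9, Ero1a, Ero1b, Creld2 and Hspa5 were the farthest down, at 0.645, 0.673, 0.667, 0.669 and 0.723. Within the P5 libraries Hspa5 still rose by 3.84 log2, and by 4.45 within P4. Creld2 rose by 5.08 within P5 and by 5.76 within P4, and Dnajb9 by 3.55 within P5 and 4.39 within P4. The test of treatment by tag passed for 0 of 14101 genes in edgeR's quasi-likelihood test (smallest adjusted p = 0.263, and 0.329 among the 48). At an unadjusted p under 0.05 it took 1351 genes (9.58%), 5 of them folding genes. With 1 DTG library under P5 and 1 DMSO library under P4, a tag and a single library cannot be told apart.

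**Figure D5:**
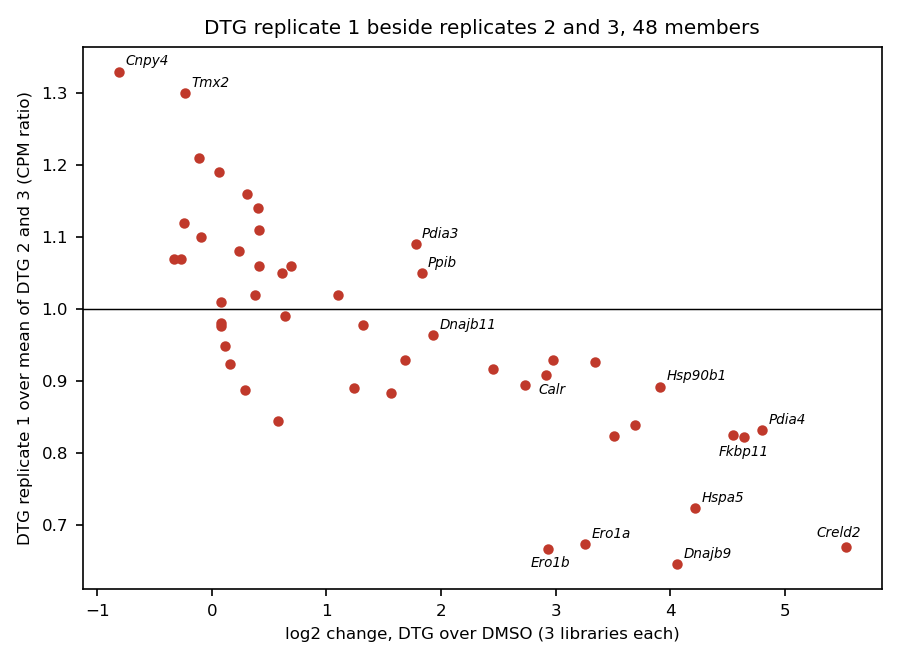
Each point is 1 of the 48 genes, with the log2 change in DTG over DMSO on the horizontal axis and the CPM of DTG replicate 1 over the mean of DTG replicates 2 and 3 on the vertical axis. Both axes use DTG replicate 1, so they are not independent. Genes with a change of at least 2 lie at ratios of 0.645 to 0.929, and Cnpy4 lies highest at 1.33.

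Lists of related genes placed the folding machinery among its neighbours. The counts of each list stand beside 27.4% of all genes tested called higher and 29.3% called lower. Of the ER-associated degradation genes 17 of 19 tested rose and 0 fell, with a median log2 change of 0.79. Sel1l, the scaffold of the HRD1 ligase, had 1952 ± 385 CPM in DTG and 174 ± 6.05 in DMSO (SD, n = 3 each), and Syvn1, the ligase itself, rose 7.15-fold. All 3 KDEL receptors, which return escaped chaperones with a KDEL signal from the Golgi, rose (median 1.34). Kdelr3 had 11.4, 17.5 and 18.3 CPM in DTG libraries, against 1.81, 1.53 and 1.43 CPM in DMSO libraries. Kdelr2 had 273, 347 and 342 CPM in DTG libraries, against 124, 129.5 and 126 CPM in DMSO libraries. The groups of both stood apart, with changes of 3.30 and 1.34 log2.

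Of the sensors and factors of the unfolded protein response 9 of 14 rose and 2 fell (median 0.76). Ddit3, which encodes the stress factor CHOP, had 586 ± 159.7 CPM in DTG and 19.4 ± 2.34 in DMSO, and Xbp1 rose 2.53-fold. The sensor gene Ern1 (IRE1) fell by 0.42 log2, and Mbtps1, the protease that first cuts ATF6, fell by 0.32. Of the glycan trimming genes and lectin cargo receptors 7 of 9 rose and 1, Man1b1, fell (median 0.55). Man1b1 lost its call with the replicate block (edgeR adjusted p = 0.0511) and without DTG replicate 2, DTG replicate 3, DMSO replicate 1 or DMSO replicate 2 (0.063 to 0.207). Mcfd2 and Lman1, the subunits of a cargo receptor for coagulation factors, rose by 2.33 and 1.13 log2.

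In the collagen folding list 4 of 11 tested were higher (36.4%) and 5 lower (45.5%), beside 27.4% and 29.3% of all genes tested. With 11 genes these shares are not read as a result about the list. Its median was -0.29 (from -0.35 to -0.14 with 1 library left out). The median was -0.14 without DTG replicate 1 or without DMSO replicate 1. Serpinh1, the collagen chaperone HSP47, had 997, 1082 and 1054 CPM in DTG libraries, against 323, 300.2 and 269 CPM in DMSO libraries. P3h1, a collagen prolyl hydroxylase, had 48.9, 47.8 and 45.96 CPM in DTG libraries, against 19.9, 20.4 and 17.96 CPM in DMSO libraries. P4ha1 and P4ha2, the catalytic subunits of collagen prolyl 4-hydroxylases, rose by 0.83 and 0.48 log2. All 4 stood higher in every DTG library. P3h4, a partner of lysyl hydroxylation, had 12.9, 10.5 and 10.9 CPM in DTG libraries, against 23.8, 28.3 and 22.4 CPM in DMSO libraries. P3h3, Crtap, Plod1 and Plod2 fell as well, by 0.50, 0.49, 0.59 and 0.29 log2. Plod2 lost its call without DTG replicate 2, DTG replicate 3, DMSO replicate 1 or DMSO replicate 3 (edgeR adjusted p = 0.059 to 0.157). Crtap, which forms a complex with the P3h1 protein and Ppib, so moved against both of its partners. The tissue-restricted ER chaperones and PDIs stayed low: 7 of 9 were too low to be tested, and Calr3 and Casq1, at most 3.69 CPM in any library, were lower in DTG. Calr3 lost its call without DTG replicate 2, DTG replicate 3, DMSO replicate 2 or DMSO replicate 3 (edgeR adjusted p = 0.0542 to 0.0721).

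Lists of genes outside the ER had medians of 0.12 to 0.73 log2. Their counts, too, stand beside 27.4% of all genes tested called higher and 29.3% called lower. Of the cytosolic chaperones 10 of 20 tested rose and 1, Hspa4l, fell (median 0.25), with Hsph1 and Bag1 at 1.37 and 0.82 log2, and Hspa8 (0.17) and Hsp90ab1 (0.02) not passing. With library-size scaling 5 rose and 3 fell (median 0.08). Hspa4l lost its call with the P tag as covariate (edgeR adjusted p = 0.0551) and without DTG replicate 2, DTG replicate 3 or DMSO replicate 3 (0.104 to 0.167). Of the cytosolic proline isomerases and thiol enzymes 6 of 14 rose and 2 fell, Fkbp5 by 0.57 and Prdx2 by 0.45 log2 (median 0.12, or -0.05 with library-size scaling). Prdx6 rose by 0.95, and Ppia (0.10) did not pass. Of the mitochondrial chaperones and thiol enzymes 10 of 11 rose (median 0.73), led by Hspa9 (mortalin) and Txn2 at 1.62 and 1.27 log2. Trap1, the mitochondrial HSP90, rose by 0.20 log2. Its call was lost with library-size scaling (adjusted p = 0.723), with the P tag as a term (adjusted p = 0.0589) and with the replicate number as a term (adjusted p = 0.0775). It was also lost without DTG replicate 2, DTG replicate 3, DMSO replicate 1 or DMSO replicate 2 (edgeR adjusted p = 0.0546 to 0.0872).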

How the data were processed

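Raw counts per Ensembl gene for 6 libraries, whole numbers without normalization, were deposited by the authors as 1 table of 43271 genes. Per the labels, 2 µg of TRIzol RNA per library went into the TruSeq Stranded mRNA kit, and per the submitters' processing notes the build was GRCm39. The aligner, counter, strand setting and annotation are not given in the sources used for this work. Without the strand setting, reads of overlapping genes on opposite strands cannot be told apart. In the table DTG replicate 1 appears as DIG, matched through the rest of the column name. Names came from reference tables (38606 identifiers, 89.2%), and exon lengths from GENCODE M21 (GRCm38).

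Genes were filtered by filterByExpr (14101 kept), scaled by TMM and compared with edgeR 4.0.16 in R 4.3.3 (robust quasi-likelihood F-test, group as the only term, Benjamini-Hochberg adjustment over all genes tested, threshold 0.05). Every adjusted p of a gene is from this test unless another is named. CPM here are counts per 1000000 counts of the TMM-scaled library. The sequencing depth of 41162353 to 56316335 counts leaves counting error small for most of the 48 genes. It is largest for Fkbp11, with 150, 168 and 110 counts in the DMSO libraries. The pipeline was tested on simulated data. Alternatives were DESeq2 1.42.0, limma-voom (limma 3.58.1), other scalings and filters, no robust estimation, a stricter and a fold threshold, the replicate number or P tag as a term, single tags and each library left out.

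The 48 members, their 10 classes, the pairs and the other lists were chosen with earlier results of these data known, and list counts carry no set test. Values in every library are given for genes that fell or did not pass, the 2 largest and the smallest change of each class, and pair genes. Of other lists the 2 smallest p, those against the majority and pair genes are named, and the remainder were chosen after their values were seen. A gene that this rule names is not reported here. The printed promoter stretches were chosen after the motif search. Figures used matplotlib 3.10.9 (Python 3.11.15).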

Additional observations from a re-analysis of the deposited data

How the results depend on the processing

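Of the 48 genes 37 kept their call under 11 alternatives (RLE and library-size scaling, DESeq2, a replicate block, the P tag as covariate and each library left out), and Dnajc1, Sdf2, Erp44, Tmx2, Tmx3, Tmx4, Prdx4, Qsox1, Fkbp7, Fkbp10 and Selenom did not under at least 1. No direction was reversed where a call stood. The labels do not say whether equal numbers in the titles pair libraries. Deviations from the group mean correlated at -0.282, 0.009 and -0.052 for equally numbered libraries, and at -0.161 to 0.196 for the others. Deviations from a mean of 3 libraries are tied to each other, so these values cannot decide whether libraries were paired. With the replicate block 34 folding genes were higher and 3 lower, Prdx4 losing its call (adjusted p = 0.0565), and no glycan trimming gene was lower (0). 

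Leaving out 1 library gave medians of the 48 genes of 0.85 to 0.94, with 33 to 35 higher and 2 to 4 lower. The list medians ran from 0.74 to 0.90 (degradation), 0.51 to 0.60 (glycan trimming), -0.35 to -0.14 (collagen), -1.18 to -1.10 (tissue-restricted), 0.19 to 0.29 (cytosolic chaperones) and 0.66 to 0.82 (mitochondrial). The lower genes ran from 0 to 1 in the glycan and cytosolic chaperone lists and from 1 to 2 in the tissue-restricted list.

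Library-size scaling gave 2536 higher genes over all, 6 lower folding genes with a median of 0.72, and list medians of 0.59 (response sensors), 0.62 (degradation), 0.38 (glycan trimming), 1.17 (KDEL receptors), -0.46 (collagen), -1.33 (tissue-restricted), 0.08 (cytosolic chaperones, 5 higher and 3 lower), -0.05 (cytosolic isomerases, 3 higher) and 0.55 (mitochondrial). These moves follow the -0.17 log2 shift of all genes. Upper-quartile scaling gave 5 lower folding genes and a median of 0.80. A log2 change of at least 1 left 885 higher and 1177 lower genes over all and 0 lower folding genes. Within the P5 libraries 2537 genes were higher and 2575 lower, and 1 folding gene was lower. That contrast came from the fit of treatment by tag to all libraries, and set DTG replicate 1 alone against DMSO replicates 2 and 3.

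The pair ratios within P4 and within P5 differed by 4.83 and 4.31 log2 for Sdf2l1/Sdf2, 5.20 and 4.29 for Creld2/Creld1, 4.32 and 3.55 for Hspa5/Hspa8, 2.67 and 2.51 for Hspa5/Hspa9, and 4.04 and 3.71 for Hsp90b1/Hsp90ab1. Hsp90b1/Trap1 gave 3.86 within P4, and Pdia4/Pdia3 and Fkbp11/Fkbp10 gave 2.82 and 4.65 within P5. The cause of these moves was not tested. Without the mitochondrial genes the 48 genes held 0.862% of DMSO counts.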
